A study of Mus musculus with 6 samples.

Results

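Activator protein 1 (AP-1) was described here by 9 genes, chosen by name: the FOS family Fos, Fosb, Fosl1 and Fosl2, the JUN family Jun, Junb and Jund, and the related factors Atf3 and Maff. All 9 were found among the 21769 gene IDs listed in all 6 files. Of these, 8 were among the 10976 genes that were tested, for which the 6 libraries averaged 1 FPKM or more (a fragment count divided by transcript length and library size). Fosb did not reach that mean.

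The libraries came from RNA of wild-type 3T3-L1, a fibroblast line of the mouse that turns into fat cells in culture, 3 from control cells and 3 from cells given chronic intermittent hypoxia (CIH), which is repeated exposure to low oxygen. Cells of both groups grew in 10% serum, received insulin to start differentiation and were held in medium with 0.1 µM insulin until day 8, and the labels call both adipocytes. The study set the control group against the CIH group. The sources used here give neither oxygen levels nor cycle times. With 1 cell line and no separate cultures named, p-values measure only how far these libraries scatter, and that scatter may be technical.

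Replicates 1 and 2 of both groups were deposited with 1 row per gene. The tables of replicate 3 repeat gene IDs over several rows, read here as transcripts and summed, and their levels are not comparable with the others. The former are called gene tables and the latter transcript tables. Control 1 and 2 and CIH 1 and 2 were therefore compared with a test, and control 3 and CIH 3 were set side by side without one, because 1 library per group has no replicate check. A fit that joined both kinds of table borrowed its spread from replicates 1 and 2 and is described as such. The gene tables correspond to 25700000 to 28000000 fragments per library. The depth of the transcript tables is unknown. The kind of table and the third replicate cannot be told apart.

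The labelled cell type was checked with 12 markers of white adipocytes and 12 of preadipocytes and fibroblasts. Adipocyte markers summed to 8154 and 8710 FPKM in control 1 and 2 and to 7383 and 6538 in CIH 1 and 2. In the transcript tables they summed to 30387 in control 3 and to 677 in CIH 3, a 44.9-fold gap, while preadipocyte and fibroblast markers summed to 403 and 3129, which is 7.76-fold higher in CIH 3. The latter list summed to 189 and 203 FPKM in control 1 and 2 and to 235 and 240 in CIH 1 and 2. Sums do not show single genes. By the test described below, 6 of 11 tested adipocyte markers were lower in CIH 1 and 2, 0 were higher and 5 did not pass. Adipoq, which encodes adiponectin, was 2156 FPKM in control 3 and 42.7 in CIH 3, and Fabp4, the fatty acid carrier of adipocytes, was 17240 and 354. Dlk1 and Pdgfra, markers of preadipocytes, were 9.99 and 18.1 FPKM in control 3 and 265 and 194 in CIH 3. The 10 macrophage markers summed to 9.51 and 9.41 FPKM in control 1 and 2, 8.17 and 8.38 in CIH 1 and 2, 6.45 in control 3 and 13.4 in CIH 3. Most of that was Cd14, at 1.40 to 8.39 FPKM, and Cd68, at 0.978 to 4.56, while Lyz2 reached 2.64 in CIH 3, Ptprc was at or below 0.00199 and Adgre1 was listed at 0 in all 6 libraries. The 8 endothelial markers summed to at most 1.02 FPKM in any library, with Pecam1 and Cdh5 under 1 FPKM throughout. In bulk RNA, fewer cells of a type and less RNA per cell cannot be told apart.

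AP-1 is a dimer of basic leucine zipper proteins. JUN proteins pair with each other or with FOS proteins, whereas FOS proteins need a JUN partner, and the make-up of the dimer changes how strongly it binds and activates. Fos, Fosb, Jun, Junb and Atf3 are immediate early or stress-inducible genes, switched on within minutes to hours by serum, kinases and stress, while Jund is expressed more evenly. Fosl1 and Fosl2 encode FRA-1 and FRA-2, which lack the strong activating domain of FOS. MAFF is a small MAF protein with no activation domain of its own, which pairs with NRF and BACH proteins and can also pair with FOS. In fat cell culture, FOS is known to rise briefly when differentiation is induced.

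Promoter windows of 300 bases (250 before and 50 after the annotated start, RefSeq, build GRCm38.p6) were listed for 8 of the 9 genes, all but Fosl1. The windows of Fos and Junb, the members with the largest rise below, and of Jun and Maff, which fell in the same libraries, are printed 5′ to 3′ on the strand of the gene. They lie at chr12:85473640-85473939 (plus strand), chr8:84978699-84978998 (minus), chr4:95052173-95052472 (minus) and chr15:79347270-79347569 (plus). Capitals mark TGACGT (the core of the cyclic AMP response element, CRE), TGACATCA (the site known from the Jun promoter) and TATAAA (the TATA box).
Fos: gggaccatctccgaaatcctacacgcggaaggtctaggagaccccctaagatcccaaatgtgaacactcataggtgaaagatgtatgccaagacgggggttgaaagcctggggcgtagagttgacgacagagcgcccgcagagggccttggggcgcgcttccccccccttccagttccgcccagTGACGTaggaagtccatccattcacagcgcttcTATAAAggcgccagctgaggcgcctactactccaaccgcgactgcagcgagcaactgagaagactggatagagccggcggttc
Junb: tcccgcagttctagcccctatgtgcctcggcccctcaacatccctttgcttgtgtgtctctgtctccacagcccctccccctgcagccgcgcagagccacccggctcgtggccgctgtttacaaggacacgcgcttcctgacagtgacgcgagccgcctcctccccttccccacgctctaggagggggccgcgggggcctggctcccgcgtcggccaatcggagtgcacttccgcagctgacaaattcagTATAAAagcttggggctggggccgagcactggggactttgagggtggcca
Jun: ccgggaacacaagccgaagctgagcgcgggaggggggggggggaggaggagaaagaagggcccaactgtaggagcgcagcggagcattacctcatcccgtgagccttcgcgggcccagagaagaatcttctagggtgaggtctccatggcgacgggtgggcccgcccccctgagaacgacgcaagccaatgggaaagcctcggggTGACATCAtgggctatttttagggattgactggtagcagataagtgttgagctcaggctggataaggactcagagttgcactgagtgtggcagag
Maff: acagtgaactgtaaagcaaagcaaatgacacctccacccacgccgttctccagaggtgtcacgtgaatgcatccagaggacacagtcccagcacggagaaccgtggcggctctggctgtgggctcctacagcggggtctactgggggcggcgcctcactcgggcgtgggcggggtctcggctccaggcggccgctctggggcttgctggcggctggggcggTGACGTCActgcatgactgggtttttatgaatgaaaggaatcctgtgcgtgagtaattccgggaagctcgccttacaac

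By the GENCODE annotation of GRCm38, which gives the exons summed for each gene, Fos (ENSMUSG00000021250) spans chr12:85473890-85477273, Fosb (ENSMUSG00000003545) chr7:19302696-19310051, Fosl1 (ENSMUSG00000024912) chr19:5447547-5455946 and Fosl2 (ENSMUSG00000029135) chr5:32135801-32157842. Jun (ENSMUSG00000052684) spans chr4:95049034-95052222, Junb (ENSMUSG00000052837) chr8:84974484-84978718 and Jund (ENSMUSG00000071076) chr8:70698949-70700616. Atf3 (ENSMUSG00000026628) spans chr1:191170296-191218039 and Maff (ENSMUSG00000042622) chr15:79346621-79359076. Jun and Jund each consist of 1 exon.

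The CRE core TGACGT was searched on both strands and starts 66 bases before the start of Fos, with TATAAA 33 bases before it. In Maff the 8 letters TGACGTCA, a full CRE that holds the core on both strands, begin 29 bases before the second of its 3 annotated starts, and this is the window printed. In Jun, TGACATCA begins 45 bases before the start. It was in 2 of 8 members, the other being Maff, where it begins 45 bases before the third start, in a window not printed. Junb held TATAAA from the first base of the annotated start and neither of the other sites. The core TGACGT was in the windows of 3 of 8 members (Atf3, Fos and Maff) and in 7.51% of all 32851 windows of this length, the full CRE in 1.79% of them, TGACATCA in 3.62% and TATAAA in 13.6%. The classical AP-1 site, TGACTCA or TGAGTCA, was in 0 of 8 members and in 5.2% of all windows, and the CArG box bound by serum response factor in 0 of 8 and in 1.63%. The windows reach only 250 bases upstream, so sites farther out were not searched, and these genes may have such sites there. The core of the hypoxia response element, ACGTG or GCGTG, was found in 6 of 8 members against 43.8% of all windows. A member was counted if any of its windows matched (10 windows for 8 members), whereas the background counts single windows, so these shares are not of the same kind. The window of Jund, counted among the 6, ends at base 70697788 of chromosome 8, before the gene start of 70698949 given above. A match is a description of these letters and not a bound site.

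In replicates 1 and 2, Fos and Junb rose in CIH, and Fosl1, Fosl2, Jun, Jund and Maff fell. Atf3 did not pass the test, and Fosb was too low to be tested. Thus 7 of the 8 tested members were called by limma (adjusted p under 0.05, Benjamini-Hochberg over all tested genes), 2 higher and 5 lower. Among all tested genes 39.1% were called, 18.2% higher and 20.9% lower. In the same libraries, 6 of 11 tested adipocyte markers fell and 0 rose, while 6 of 8 tested preadipocyte and fibroblast markers rose and 2 fell, and their part in the changes of the members was not tested. For all 9 members, both CIH libraries lay on one side of both controls, which held for 74.0% of tested genes. The share of calls that were higher, 46.5% of 4292 genes, was 31.8% after scaling by totals and 56.2% after scaling by the upper quartile. The count of 4292 was 1865 without CIH 1 and 2316 without CIH 2, and 1396 with no filter on low values. Without that filter, 3 members were called (Fos, Fosl1 and Maff), and Junb, Jun, Fosl2 and Jund had adjusted p = 0.0502, 0.0626, 0.0763 and 0.126.

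**Figure D1:**
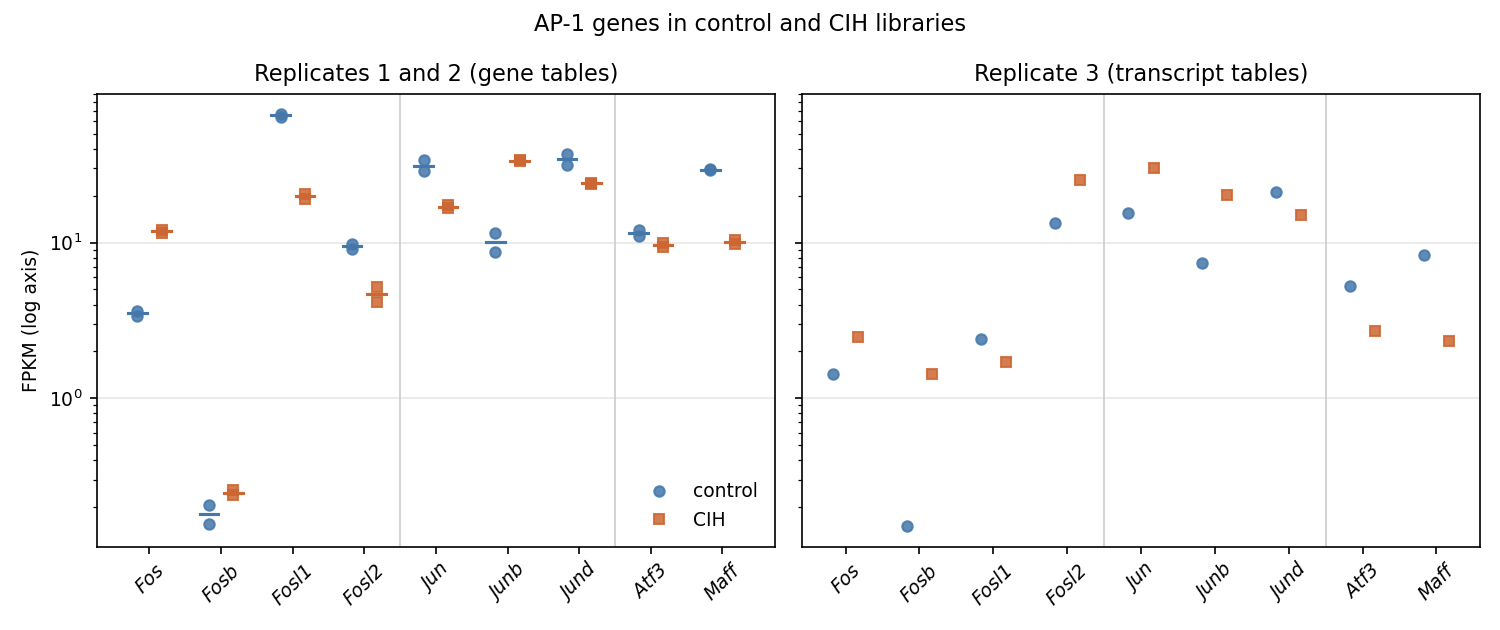
FPKM of the 9 AP-1 genes on a log axis, in gene tables (left, replicates 1 and 2) and transcript tables (right, replicate 3). Each point is 1 library, circles are control, squares are CIH, and short lines are means of 2 libraries; levels are not comparable between the panels. On the left, Fos and Junb are higher in CIH and Fosl1 and Maff lower.

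Within the FOS family, Fos was at 3.62 and 3.39 FPKM in control 1 and 2 and at 11.6 and 12.1 in CIH 1 and 2. These values rest on 219 and 223 fragments in the controls and on 712 and 779 in CIH. Both CIH libraries were above both controls by far more than the libraries of a group differed. The means were 3.50 ± 0.163 and 11.8 ± 0.352 FPKM (SD, n = 2 each), a 2.85-fold rise on the log2(FPKM + 1) scale used for all changes here, which understates the change of low genes (log2 change 1.51, SE 0.080, adjusted p = 0.000837). Fos ranked 32 from the top among the 10976 tested genes. In the transcript tables Fos was 1.43 FPKM in control 3 and 2.49 in CIH 3, again higher in CIH.

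Fosl1, which encodes FRA-1, was the most abundant of the 9 genes in control 1 and 2, at 64.4 and 66.8 FPKM. It was at 19.1 and 20.4 FPKM in CIH 1 and 2, so that the groups were far apart. The mean fell from 65.6 ± 1.69 to 19.7 ± 0.971 FPKM (SD, n = 2 each), 3.21-fold (log2 change −1.68, SE 0.070, adjusted p = 0.000609). Fosl1 was much lower in the transcript tables, at 2.40 FPKM in control 3 and 1.72 in CIH 3. That small gap pointed the same way as in replicates 1 and 2 but turned to a difference of 0.10 in favour of CIH 3 after scaling by totals. Fosl1 shares 1163 of its 2033 exon bases with Ccdc85b, a gene on the opposite strand. Ccdc85b was at 110 and 153 FPKM in control 1 and 2 and at 104 and 92.8 in CIH 1 and 2. The library kit is directional, but whether counting used the strand is not given, and without strand the fragments of such a pair cannot be told apart.

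Fosl2, which encodes FRA-2, was at 9.06 and 9.83 FPKM in control 1 and 2 and at 4.13 and 5.20 in CIH 1 and 2. Its groups did not overlap, and it fell 1.85-fold (log2 change −0.89, SE 0.12, adjusted p = 0.00645). In the replicate 3 pair the order was the opposite, with 13.4 FPKM in control 3 and 25.2 in CIH 3. Fosb was the lowest member in every library. It was at 0.156 and 0.206 FPKM in control 1 and 2 and at 0.257 and 0.239 in CIH 1 and 2, from 25, 36, 42 and 41 fragments. The exact 95% Poisson interval of control 2 reached 0.285 FPKM and that of CIH 2 started at 0.172, so the intervals of these libraries overlapped, although both CIH values were above both controls (the intervals cover counting error only). Without the filter its log2 change was 0.08 (adjusted p = 0.241). In the transcript tables Fosb was 0.152 FPKM in control 3 and 1.44 in CIH 3.

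Within the JUN family, Junb rose. It was at 8.65 and 11.5 FPKM in control 1 and 2 and at 33.3 and 33.8 in CIH 1 and 2, a gap larger than the spread between the controls. JUNB is a JUN protein of weaker activity than c-JUN on many sites. The mean went from 10.1 ± 1.99 to 33.5 ± 0.311 FPKM (SD, n = 2 each; log2 change 1.66, SE 0.13, adjusted p = 0.00194), rank 19 from the top. Junb was also higher in CIH 3, at 20.1 FPKM, than in control 3, at 7.39. It shares 173 of 2301 exon bases with Prdx2, a peroxiredoxin gene on the opposite strand, which was at 55.9 and 60.3 FPKM in control 1 and 2 and at 78.0 and 65.8 in CIH 1 and 2.

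Jun, which encodes c-JUN, went the other way in these libraries. It was at 28.7 and 33.6 FPKM in control 1 and 2 and at 16.7 and 17.3 in CIH 1 and 2. The groups did not overlap, and Jun fell 1.78-fold (log2 change −0.83, SE 0.096, adjusted p = 0.00447). Control 3 had 15.5 FPKM of Jun and CIH 3 had 30.04, the opposite order. Its antisense gene Junos, which shares 232 exon bases with it, was at or below 0.359 FPKM in the gene tables.

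Jund was at 31.3 and 37.3 FPKM in control 1 and 2 and at 23.9 and 24.2 in CIH 1 and 2. It showed the smallest of the 7 called changes (1.40-fold lower, log2 change −0.49, SE 0.099, adjusted p = 0.0188). That call was lost without CIH 1 (adjusted p = 0.0889) and without CIH 2 (adjusted p = 0.073), with the change at −0.48 and −0.50. Jund was 20.99 FPKM in control 3 and 14.9 in CIH 3, a difference that turned to 0.13 in favour of CIH 3 after scaling by totals. Gm11175, an antisense gene that covers 877 of the 1668 bases of Jund, was listed at 0 in the 4 gene tables and at 45.8 and 36.0 FPKM in control 3 and CIH 3.

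Maff was at 29.2 and 29.6 FPKM in control 1 and 2 and at 10.4 and 9.76 in CIH 1 and 2. The groups were far apart, and Maff fell 2.74-fold (log2 change −1.46, SE 0.070, adjusted p = 0.000737). The 2 entries of the transcript tables summed to 8.30 FPKM in control 3 and to 2.33 in CIH 3, where the second entry of Maff was listed at 0. Atf3, a stress-induced factor that pairs with JUN proteins, was at 11.1 and 12.0 FPKM in control 1 and 2 and at 9.96 and 9.31 in CIH 1 and 2. Its log2 change of −0.24 (SE 0.081) did not pass the test (adjusted p = 0.0742), although scaling by totals brought it past the threshold (log2 change −0.34, adjusted p = 0.0256). Atf3 was 5.28 FPKM in control 3 and 2.71 in CIH 3.

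The order of levels changed as well. In control 1 and 2, Fosl1 stood first, followed by Jund, Jun and Maff, then Atf3, Junb and Fosl2, then Fos and Fosb. In that order Jund and Jun overlapped in their libraries, as did Jun and Maff, Atf3 and Junb, and Junb and Fosl2. In CIH 1 and 2, Junb stood first, followed by Jund, Fosl1, Jun, Fos, Maff, Atf3, Fosl2 and Fosb, and only the neighbours Maff and Atf3 overlapped. FPKM in the gene tables is scaled to the summed exon length of a gene, whichever transcripts are expressed, so the order of genes is only approximate. The overlap with Ccdc85b described above applies to the place of Fosl1.

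The make-up of each family was described by shares of its summed FPKM. The FOS family summed to 78.7 ± 2.10 FPKM in control 1 and 2 and to 36.5 ± 2.07 in CIH 1 and 2 (SD, n = 2 each). Fosl1 held 83.4% and 83.3% of it in the controls, and in CIH 1 and 2 it held 54.4% and 53.85%. The share of Fos was 4.69% and 4.22% in the controls and 33.05% and 31.8% in CIH, while Fosl2 kept a similar share, between 11.7% and 13.7% in the 4 libraries. Fosl1 was 17.8 and 19.7 times as abundant as Fos in control 1 and 2 and 1.65 and 1.69 times in CIH 1 and 2. The family sums, shares and ratios rest on the level of Fosl1, to which the overlap with Ccdc85b described above applies.

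The JUN family had similar sums in both groups, 75.5 ± 9.70 FPKM in control 1 and 2 and 74.6 ± 1.02 in CIH 1 and 2 (SD, n = 2 each). Its parts changed places: Junb held 12.6% and 13.9% in the controls and 45.1% and 44.8% in CIH. Jun held 41.8% and 40.8% in the controls and 22.6% and 23.0% in CIH. Jund held 45.6% and 45.25% in the controls and 32.3% and 32.2% in CIH. These shares restate the levels of the members and carry no test of their own.

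In the transcript tables, whose unit was read as FPKM but not checked, the make-up was different in both groups. Fosl2 held 77.1% of the FOS family in control 3 and 81.7% in CIH 3, and Fos 8.26% and 8.07%. The FOS family summed to 17.4 FPKM in control 3 and to 30.9 in CIH 3. In the JUN family, which summed to 43.9 and 65.1 FPKM, the share of Junb was 16.8% in control 3 and 30.9% in CIH 3, higher in CIH as in replicates 1 and 2. The share of Jun was 35.3% and 46.15%, the reverse order of the gene tables, and that of Jund was 47.85% and 22.9%. The overlap of Jund with Gm11175, listed at 45.8 and 36.0 FPKM in control 3 and CIH 3, applies to these JUN family sums and shares.

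**Figure D2:**
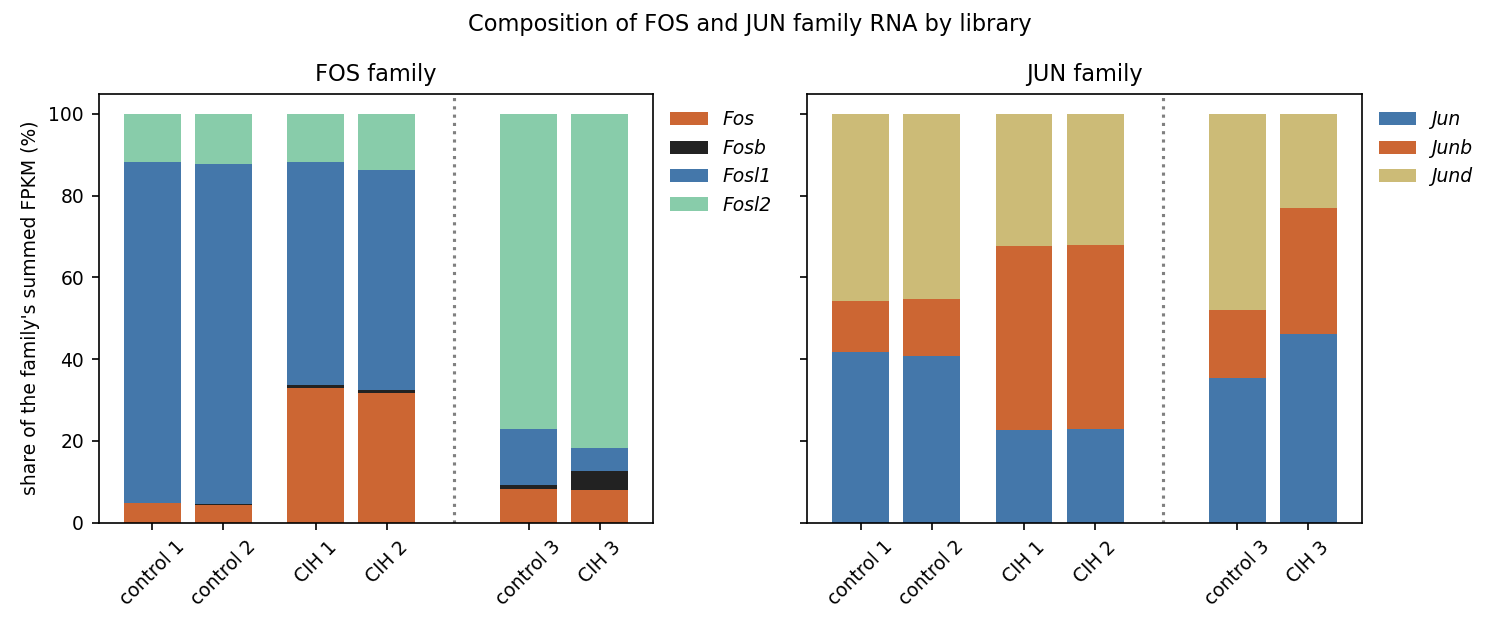
Share of each gene in the summed FPKM of its family (percent), 1 bar per library, for the FOS family (left) and the JUN family (right); the dotted line parts gene tables from transcript tables. Fos and Junb hold larger shares in CIH 1 and 2 than in control 1 and 2, and Fosl2 holds most of the FOS family in both transcript tables.

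Set side by side, the comparisons pointed the same way for 7 of 9 members and opposite ways for Jun and Fosl2. After scaling by totals, Fosl1 (0.10) and Jund (0.13) were also higher in CIH 3 and so opposite to replicates 1 and 2. Opposite signs were seen in 49.4% of tested genes. In CIH 3, 5 members were higher than in control 3 and 4 were lower, where 61.9% of tested genes were higher. At least 2-fold differences were seen upward for 2 of 9 members, Junb and Fosb (21.8% of tested genes), and downward for 1, Maff (11.8% of tested genes), shares near the background. The median difference of all tested genes was 0.26 in this pair and −0.01 in replicates 1 and 2. Relative to that median, Junb was at 1.07, Jun at 0.65, Fosl2 at 0.60, Fos at 0.26, Fosl1 at −0.59, Jund at −0.73, Atf3 at −1.02 and Maff at −1.74 (differences on the log2 scale). Scaling by totals moved the median of all genes to 0.84 in the replicate 3 pair and to −0.10 in replicates 1 and 2. The part of the marker differences between control 3 and CIH 3 in these values was not tested.

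The gap between the comparisons was described as the log2 difference of the replicate 3 pair minus the log2 change in replicates 1 and 2. It was 1.75 for Fosl2, 1.74 for Jun and 1.36 for Fosl1, which all stood higher in the replicate 3 pair. It was −0.99 for Fos and −0.53 for Atf3, and −0.32 for Junb, 0.02 for Jund and −0.02 for Maff. A limma interaction of group and kind of table called the first 5 of these 8 members and 66.0% of all tested genes, so the share of members was near the background. All its spread came from replicates 1 and 2, with no replicate in either arm of the replicate 3 pair, and its calls do not show that the response differed. When all 6 libraries were fitted together and the kind of table was a covariate, limma called 0.574% of genes, among them 2 members, Junb (log2 change 1.55, adjusted p = 0.0445) and Maff (log2 change −1.46, adjusted p = 0.0307). With the replicate number as a block over the 6 libraries, limma called 0 genes (lowest adjusted p = 0.284), and 5 of 8 members and 1123 genes had an unadjusted p under 0.05.

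**Figure D3:**
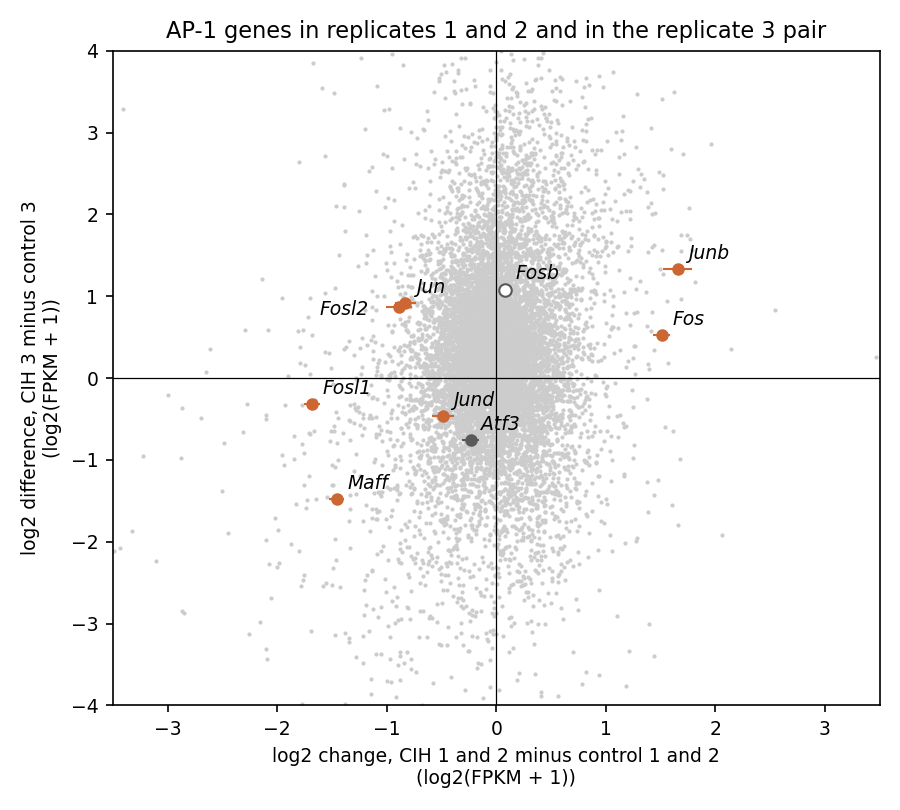
Log2 change of CIH 1 and 2 against control 1 and 2 (x axis, bars are 1 SE) and log2 difference of CIH 3 and control 3 (y axis, 1 library each), on the log2(FPKM + 1) scale. Grey dots are tested genes, of which 118 of 10976 lie outside the axes; orange points are members called in replicates 1 and 2, the dark point is Atf3 (not called) and the open point is Fosb (not tested). Jun and Fosl2 lie in the upper left, with opposite signs in the comparisons.

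Genes with a pattern most like that of Fosl1 were found by Euclidean distance over the 6 libraries after centring log2 values within each kind of table. Fosl1 was taken because its change was the largest of the called members on the log2(FPKM + 1) scale, where Junb came close. Junb was ahead with a pseudocount of 0.1 (1.74 against −1.73 for Fosl1), with scaling by the upper quartile (1.71 against −1.63) or the median of ratios (1.67 against −1.66), without control 2 (1.84 against −1.66) and without CIH 1 (1.66 against −1.63), and in the fits over 6 libraries (1.55 against −1.23). The 5 nearest were Cdk18, a cyclin-dependent kinase (distance 0.133), Mmp11, a matrix metalloproteinase (0.153), Limk1, a kinase of the actin cytoskeleton (0.253), Fads2, a fatty acid desaturase (0.255), and Slc35e3, a solute carrier (0.295). Their log2 changes in replicates 1 and 2 lay between −1.78 and −1.49. Cdk18, for example, was at 38.8 and 42.1 FPKM in control 1 and 2, 12.45 and 11.8 in CIH 1 and 2, and in the replicate 3 pair at 8.32 in the control and 6.71 in CIH.

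Of the genes known as AP-1 targets, most of those tested were higher in CIH. Of 27 listed, 16 were tested, and in replicates 1 and 2, 12 rose, 2 fell and 2 were not called, with a median log2 change of 0.69 beside −0.01 for all genes. Over all tested genes, 18.2% rose and 20.9% fell, which is the background for this and the following lists. In the same libraries 6 of 8 tested preadipocyte and fibroblast markers rose (median 0.48), whose part was not tested. The list was chosen with earlier results of these data known. The count is therefore only a description of the list, and it was given no test of its own. The filter took the mean over all 6 libraries, so in this and the other lists a gene could pass it on CIH values alone. Mmp3, Plaur, Ptgs2 and Tnc, counted as rises, were under 1 FPKM in control 1, control 2 and control 3. Cxcl1, a chemokine that attracts neutrophils, had the largest rise (log2 change 1.96, SE 0.14, adjusted p = 0.00146), from 0.242 ± 0.196 to 3.81 ± 0.551 FPKM (SD, n = 2 each). Ccl2, which attracts monocytes, was next (log2 change 1.74, adjusted p = 0.00094). Lox, the collagen-crosslinking lysyl oxidase, fell from 52.5 ± 2.41 to 16.8 ± 1.72 FPKM (SD, n = 2 each; log2 change −1.59, adjusted p = 0.00102), whereas control 3 had 49.0 FPKM and CIH 3 had 583, the opposite order. In the replicate 3 pair, 11 of the 16 were at least 2-fold higher and 1 at least 2-fold lower (median difference 2.05, all genes 0.26), beside the marker difference of that pair given above, whose part was not tested. Among the 11 were Mmp9 (0.0838 FPKM in control 3, 12.45 in CIH 3), Tnc (0.192 and 14.67) and Mmp3 (0.557 and 5.48). These were under 1 FPKM in every library but CIH 3 and passed the filter only through the value compared here.

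Feedback inhibitors of MAP kinases, the kinases that induce and phosphorylate AP-1 proteins, rose for 6 of 15 tested genes and fell for 1, with 8 not called (median 0.20, beside 39.1% of all tested genes called). Spry4, a Sprouty inhibitor of receptor signalling, rose from 10.3 ± 0.358 to 26.5 ± 0.514 FPKM (SD, n = 2 each; log2 change 1.29, SE 0.069, adjusted p = 0.000846), but was 8.48 in control 3 and 1.44 in CIH 3. Dusp6, a phosphatase of ERK, rose from 0.615 ± 0.0954 to 2.72 ± 0.371 FPKM (SD, n = 2 each; log2 change 1.20, adjusted p = 0.00182), and Spry3, another Sprouty inhibitor, fell (log2 change −0.26, adjusted p = 0.0402). The kinases themselves were mixed: of 26 tested, 6 rose, 8 fell and 12 were not called (median −0.10). Map2k3, which activates p38, rose (log2 change 0.82, adjusted p = 0.00313), as did Rps6ka3, which encodes the ERK-activated kinase RSK2 (log2 change 0.55, adjusted p = 0.0143). Rps6ka1, which encodes RSK1 (log2 change −0.87, adjusted p = 0.00248), and Map3k1, a kinase upstream of JNK (log2 change −0.75, adjusted p = 0.00454), fell. In the replicate 3 pair, Map2k3 (log2 difference −0.235), Rps6ka3 (−0.51), Map3k1 (0.02) and Spry3 (0.14) had the opposite sign. Rps6ka1 (−0.83) and Dusp6 (0.21) had the same sign there.

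Serum response factor and its partners, listed as acting upstream of Fos in either direction, gave 1 rise, 1 fall and 5 not called among 7 tested genes (median 0.11). Elk3 rose (log2 change 0.43, adjusted p = 0.0163) and Elk4 fell (log2 change −0.73, adjusted p = 0.00454). Both encode ternary complex factors that bind DNA beside serum response factor. The log2 difference of the replicate 3 pair was 2.09 for Elk3 and 0.01 for Elk4, the latter of opposite sign. Srf itself was 16.7 ± 0.765 FPKM in control 1 and 2 and 15.3 ± 0.686 in CIH 1 and 2 (SD, n = 2 each) and was not called (adjusted p = 0.268).

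Other leucine zipper factors that can pair with AP-1 proteins or are related to them gave 3 rises and 3 falls among 19 tested genes, and 13 did not pass the test (median −0.09, beside 39.1% of all tested genes called). Ddit3, the stress factor CHOP, rose (log2 change 0.61, adjusted p = 0.00471), as did Atf5 (log2 change 0.52, adjusted p = 0.00888). Atf6, a sensor of endoplasmic reticulum stress, fell (log2 change −0.73, adjusted p = 0.00425), and so did Maf, a large MAF protein (log2 change −0.57, adjusted p = 0.00425). Maf was 8.22 FPKM in control 3 and 103 in CIH 3, the opposite order. Genes for the turnover of JUN and FOS proteins gave 1 rise, 2 falls and 6 not called among 9 tested. Cops5, the JUN-binding subunit of the COP9 signalosome, rose (log2 change 0.55, adjusted p = 0.0163), and the ubiquitin ligase scaffolds Cul1 (log2 change −0.40, adjusted p = 0.0168) and Cul4a (log2 change −0.29, adjusted p = 0.0286) fell. The replicate 3 pair had the opposite sign for Cops5 (log2 difference −0.17) and the same sign for Cul1 (−0.31) and Cul4a (−0.03).

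Other immediate early genes went both ways. Of 24 tested, 7 rose, 8 fell and 9 were not called, with a median of −0.07, beside 18.2% higher and 20.9% lower over all tested genes. Ccn1, a matricellular protein induced by serum, rose (log2 change 1.13, adjusted p = 0.00217), as did Sgk1, a serum-induced kinase (log2 change 1.10, adjusted p = 0.00174). Klf2, a Krüppel-like factor, fell from 13.6 ± 0.418 to 3.48 ± 0.0318 FPKM (SD, n = 2 each; log2 change −1.71, adjusted p = 0.00067), and Btg2, an antiproliferative gene, fell too (log2 change −1.06, adjusted p = 0.00115). In the replicate 3 pair, Ccn1 (log2 difference −0.45), Sgk1 (−0.47) and Klf2 (0.98) had the opposite sign, and Btg2 (−1.40) had the same sign. Of the 24 genes, 12 were at least 2-fold higher in that pair and 6 at least 2-fold lower, beside 21.8% and 11.8% of all tested genes. The adipocyte markers (44.9-fold lower in CIH 3) and the preadipocyte and fibroblast markers (7.76-fold higher) moved in the same pair, and their part was not tested.

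**Figure D4:**
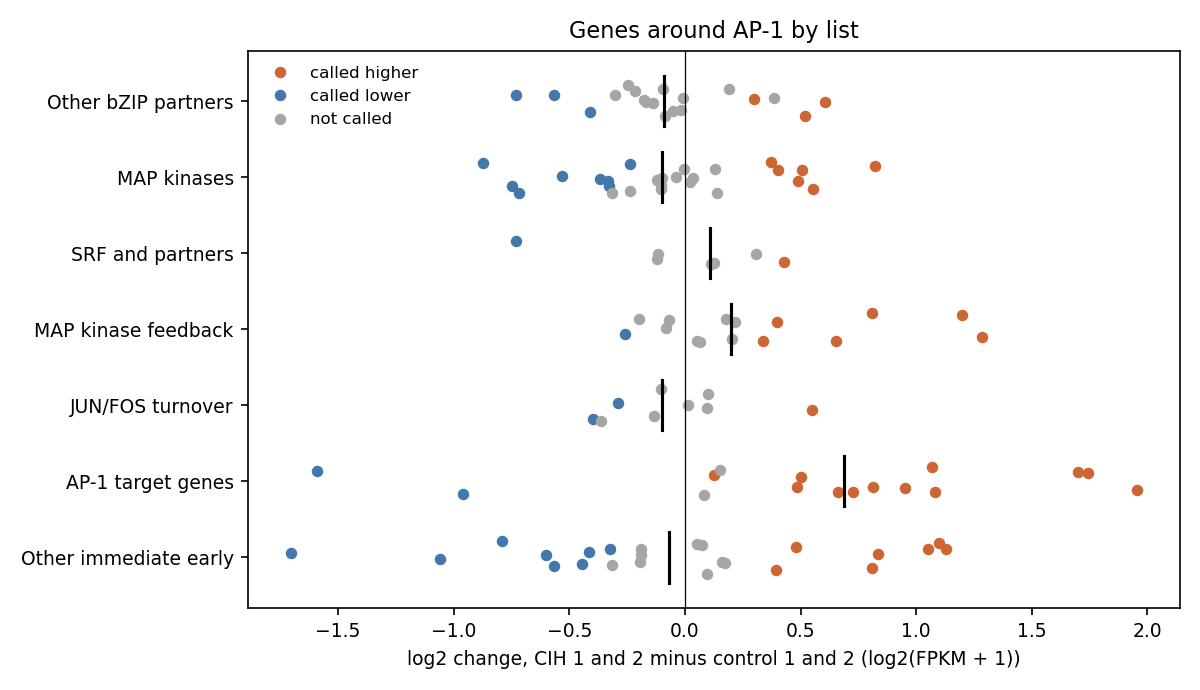
Log2 change of CIH 1 and 2 against control 1 and 2 (log2(FPKM + 1)) for the tested genes of 7 lists around AP-1, 1 point per gene, with random vertical offsets for display. Orange points were called higher, blue points called lower and grey points not called; black lines are list medians. AP-1 target genes lie mostly to the right (12 of 16 called higher), and the other lists spread to both sides.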

How the data were processed

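All values were deposited as FPKM, a unit read from the values because the file headers name only the samples. The submitters' processing notes list GRCm38, featureCounts 1.5.0-p3 and DESeq 1.8.3 without their roles, and for the aligner: not given in the sources used here. Repeated gene IDs of the transcript tables (50660 entries, 21950 IDs) were summed. Symbols and exon lengths came from GENCODE mouse release 21. In the gene tables, FPKM times exon length gave whole fragments (within 0.05) for 98.4% to 98.6% of genes under 50 fragments (10% by chance). Values were taken as log2(FPKM + 1) and tested in R 4.3.3 with the trended empirical Bayes of limma 3.58.1 (group as the only term) on control 1, control 2, CIH 1 and CIH 2, over genes averaging 1 FPKM or more in the 6 libraries. Motifs were searched on both strands of the promoter windows, and figures made, with Python 3.11.15. Alternatives covered the pseudocount, the scaling, the filter, the trend, replicate blocks, libraries left out and fits over 6 libraries.

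The members and gene lists were chosen with earlier results of these data known. From each list other than cell type markers, up to 2 called genes with the largest change in each direction were named, and the first 2 of each marker list; for Fosl1, the 5 protein-coding genes with the nearest pattern. Srf, and Mmp3, Mmp9, Plaur, Ptgs2 and Tnc in the remarks on the filter, were added after their values were seen. A gene that this rule names is not reported here. Deviations from group means correlated at 0.529, 0.587 and 0.581 between same-numbered libraries over all 6, all over 0.1, the level used to judge pairing. Replicate 3 is also the other kind of table, and these cannot be told apart. That difference alone makes the deviations correlate for every replicate number, so these values cannot show that the samples are paired. Within replicates 1 and 2 alone, the deviations of same-numbered libraries correlated at −0.178, and the main test used no pairing. Sampling noise was exceeded between control 1 and control 2 and between CIH 1 and CIH 2 (mean chi-square 15.2 and 10.3, about 1 without a difference).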

Additional observations from a re-analysis of the deposited data

Results flagged for a closer look

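The gap between the replicate 3 pair and replicates 1 and 2 passed a limma interaction of group and kind of table for 5 of 8 tested members. That fit has 1 library per group in the replicate 3 pair and takes all its spread from replicates 1 and 2, so it does not show that the response differed. The log2 change of the replicate 3 pair minus that of replicates 1 and 2 was 1.75 for Fosl2, 1.74 for Jun and 1.36 for Fosl1. It was −0.99 for Fos and −0.53 for Atf3. Across all tested genes, 66.0% were called by the same fit, near the share of the members, so this is not a result about the members. For Jun and Fosl2, both CIH libraries lay below both controls in replicates 1 and 2, and CIH 3 lay above control 3.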

How the results depend on the processing

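Fos, Fosl1 and Maff were called in all 13 alternatives within replicates 1 and 2 (other pseudocounts, scalings, filters, limma without a trend, replicate blocks and each library left out), with log2 changes between 1.41 and 1.73, −1.80 and −1.63, and −1.57 and −1.40. Members called numbered 6 to 7 when 1 library was left out (2 higher; 4 to 5 lower), and all genes called 1865 to 3682 (827 to 1736 higher, 1038 to 1946 lower). In those fits the lone library of a group is assumed to vary like the other group. With no filter on low values, limma called 3 members (1 higher, 2 lower) and 1396 genes (590 higher, 806 lower). Adding control 3 and CIH 3, with kind of table as a covariate, gave 2 members (1 higher, 1 lower) and 63 genes (20 higher, 43 lower). Over 6 libraries with the group alone it called 0 members and 0 genes, with 1 of 8 members and 490 genes at an unadjusted p under 0.05, and with a replicate block 0 members and 0 genes, with 5 members and 1123 genes. Within replicates 1 and 2, the replicate block kept 7 members called (3332 genes in all) and changed no call of a member. Crossed replicate numbers, an alternative added after seeing the data, gave 7 members and 4510 genes. The cause of these differences was not tested. In the replicate 3 pair, scaling by totals reversed Fosl1 (0.10) and Jund (0.13) and raised the members higher in CIH 3 from 5 to 7. Fosb rests on the fewest fragments of the members, 25 to 42 per library of the gene tables.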
